A study of Saccharomyces cerevisiae with 8 samples.

Results

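This account concerns 6 yeast genes: ERG2 (YMR202W), ERG3 (YLR056W), ERG25 (YGR060W) and ERG28 (YER044C) of late ergosterol synthesis, CYB5 (YNL111C) for cytochrome b5, and HES1 (YOR237W) for a sterol-binding protein. They were chosen by their measured ratios of sub1Δ to wild type on the 8 arrays described here, so those ratios are given as a description and carry no test. Each has 1 spot with a single gene symbol, 6 of 3344 such spots and of 6216 spots in all. ERG2, ERG3, ERG25, ERG28 and CYB5 had a value on all 8 arrays, and HES1 on 5.

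Total RNA came from Saccharomyces cerevisiae, wild type (yPH500) or the same background lacking SUB1, which encodes a transcription coactivator, grown in YPD at 30°C to an optical density of 1. The untreated group was collected at time zero, and the 4NQO group after 1 h with 1 µg/µl 4NQO, a DNA-damaging mutagen, as the labels give the dose. Every array carried both strains, 1 per dye, so each value is the log2 ratio of sub1Δ to wild type under the same treatment. Each group holds 2 independent experiments, each hybridised once with the mutant in Cy5 and once with the mutant in Cy3. No array set treated against untreated cells, so the response of either strain alone was not measured, and the drug and the extra hour of culture cannot be told apart. The sources used here give no number of sub1Δ clones. The loss of SUB1 itself was not checked, since no spot carries its symbol alone.

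Ergosterol is the main sterol of fungal membranes, and its synthesis ends in a chain of enzymes of the endoplasmic reticulum that reshape the sterol ring and side chain. Several of them are oxygenases that draw electrons from cytochrome b5 or from cytochrome P450 reductase. ERG25 encodes the methyl oxidase that starts removal of the paired methyl groups of the early sterols, together with the enzymes of ERG26 and ERG27, and ERG28 encodes the scaffold that holds these 3 enzymes together. ERG2 encodes a sterol isomerase and ERG3 the desaturase that acts after it. Cytochrome b5, the product of CYB5, passes electrons to the desaturase and to the methyl oxidase. HES1 encodes a small oxysterol-binding protein homologue, a lipid-transfer protein and no enzyme of the chain.

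The arrays differed in completeness and centring. Between 2982 and 5950 of the 6216 spots had a value per array, the lowest on the Cy3-mutant array of 4NQO experiment 2. Turned to sub1Δ over wild type, array medians ran from -0.21 to 0.01 in untreated cells and from -0.66 to -0.14 with 4NQO, so a ratio of 0 lies above the middle of the 4NQO arrays. The 2 arrays of a dye swap correlated across features at r = 0.20 and -0.20 in untreated experiments 1 and 2, and at 0.26 and 0.33 with 4NQO (features are not independent replicates). The arrays of untreated experiment 2 thus showed no clear agreement (Spearman's rank correlation 0.05), which touches every untreated value below. The number of arrays limits the precision, and the spread given is that between 2 experiments.

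With 4NQO, the 4 ergosterol genes and CYB5 were higher in sub1Δ on every array, 20 of 20 values. HES1 was below 0 on every array, but so was the median of each of these arrays. Its low mean rests on 1 array at -10.67, and without that array the mean was -0.66. The means of ERG2, ERG3, ERG25, ERG28 and CYB5 ran from 2.003 to 3.35 on the log2 scale, about 4.01-fold to 10.2-fold. In untreated cells the same 5 genes had means from -0.06 to 0.90. The highest, ERG25, ranked 195th from the top of 3457 features. The 5 genes had a median of 2.56 with 4NQO and 0.33 untreated, beside medians of -0.56 and 0.02 over all 2194 and 3457 features tested in the same conditions.

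**Figure D1:**
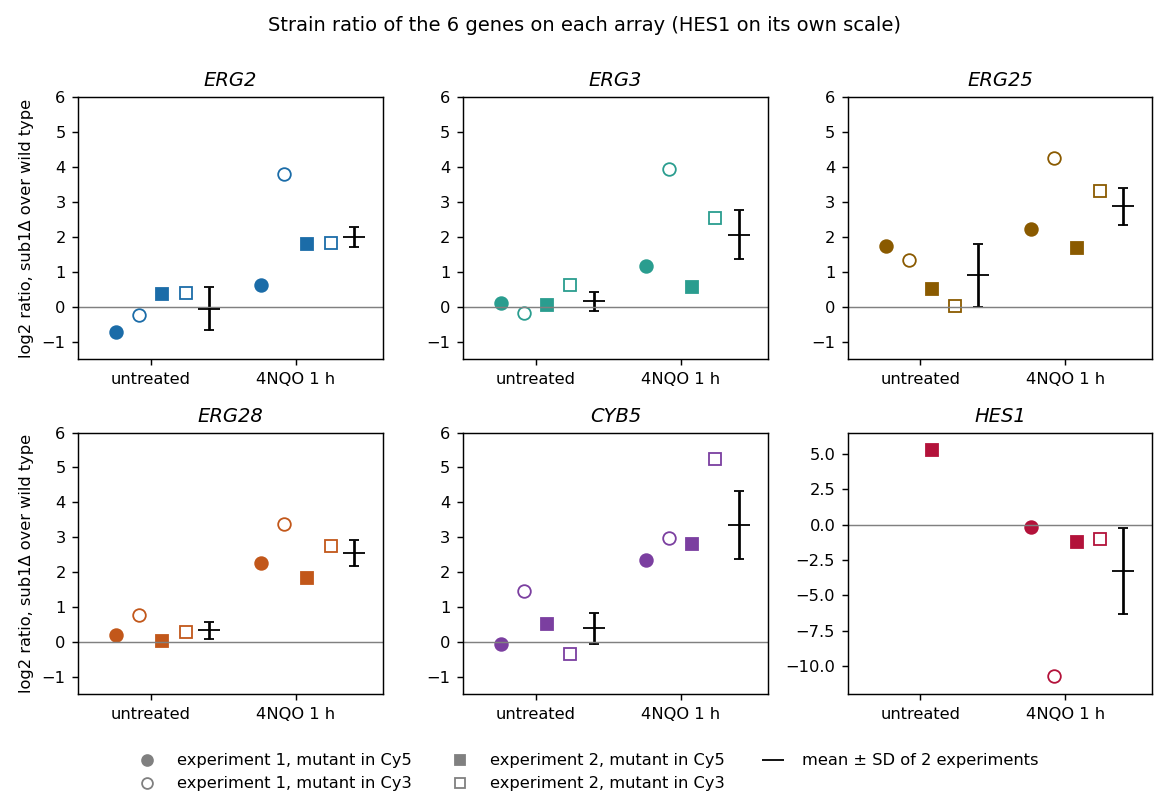
Each panel gives 1 gene; the y axis is the log2 ratio of sub1Δ to wild type, on a wider scale for HES1. Points are single arrays (circles experiment 1, squares experiment 2, filled with the mutant in Cy5, open with the mutant in Cy3), and bars are the mean ± SD of 2 experiments. The 4NQO points of the first 5 genes all lie above 0, from 0.57 to 5.25, and 1 HES1 array lies at -10.67.

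ERG25, the methyl oxidase gene, was at 2.23 (mutant in Cy5) and 4.27 (mutant in Cy3) in 4NQO experiment 1 and at 1.68 and 3.30 in experiment 2. Its mean was 2.87 ± 0.54 (SD, n = 2 experiments), 7.31-fold higher in sub1Δ. In untreated cells it read 1.74 and 1.32 in experiment 1 and 0.52 and 0.01 in experiment 2, a mean of 0.90 ± 0.89. ERG25 thus had the highest untreated mean of the 5 genes, most of it from experiment 1, and its conditions overlap, since the highest untreated array exceeds the lowest 4NQO array.

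ERG28, the scaffold gene, gave 2.26 and 3.38 in 4NQO experiment 1 and 1.84 and 2.75 in experiment 2. The mean was 2.56 ± 0.37 (SD, n = 2), or 5.89-fold. Untreated arrays stood at 0.22 and 0.78, then 0.03 and 0.30, with a mean of 0.33 ± 0.24. All 4 4NQO arrays lay above all 4 untreated arrays, and the 2 experiments differed least among these genes apart from ERG2.

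ERG2, the isomerase gene, was at 0.61 and 3.81 in 4NQO experiment 1 and at 1.78 and 1.81 in experiment 2, a mean of 2.003 ± 0.29 (SD, n = 2). The small SD hides the widest gap between 2 arrays of the same RNA among the 5 genes, 3.19 in experiment 1. Untreated values were -0.73 and -0.25 in experiment 1 and 0.36 and 0.39 in experiment 2, with a mean of -0.06 ± 0.61. Experiments 1 and 2 thus fell on opposite sides of 0 before treatment, and all 4 4NQO arrays lay above them.

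ERG3, the desaturase gene, was at 1.18 and 3.93 in 4NQO experiment 1 and at 0.57 and 2.55 in experiment 2, with a mean of 2.06 ± 0.70 (SD, n = 2) or 4.16-fold. Untreated arrays were at 0.09 and -0.17, then 0.04 and 0.63, with a mean of 0.15 ± 0.27. The highest untreated array passed the lowest 4NQO array by a narrow margin, so the conditions overlap.

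CYB5 had the highest mean of the 6 genes with 4NQO, 3.35 ± 0.96 (SD, n = 2) or 10.2-fold. Its arrays were at 2.36 and 2.99 in experiment 1 and at 2.82 and 5.25 in experiment 2. The highest of these was the 21st highest of 2982 values on its array. Untreated values were -0.06 and 1.46, then 0.51 and -0.34, with a mean of 0.39 ± 0.43, and no untreated array reached the 4NQO arrays.

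The order of the 4NQO means was CYB5, ERG25, ERG28, ERG3 and ERG2, and each gap between neighbours was smaller than the larger of their SDs. The order was not the same in both experiments. In experiment 1 ERG25 led at 3.25 and CYB5 lay below ERG28, at 2.67, and in experiment 2 CYB5 led at 4.04 with ERG25 at 2.49. ERG25 stood above ERG28, and ERG28 above ERG3, in both. Ranked among the 2194 features tested with 4NQO, CYB5 was the 11th highest, ERG25 the 31st, ERG28 the 47th, ERG3 the 129th and ERG2 the 139th.

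HES1 did not share the positive 4NQO ratios of the other genes. With 4NQO its arrays were at -0.18 and -10.67 in experiment 1 and at -1.22 and -1.04 in experiment 2, a mean of -3.28 ± 3.04 (SD, n = 2) and the 11th lowest of 2194 features. The value of -10.67, from the array with the mutant in Cy3, was the 17th lowest of 4723 on that array, where 48 values lay below -6. Without that array the mean was -0.66, near the median of all tested features, -0.56. In untreated cells HES1 had a value on 1 array, the Cy5-mutant array of experiment 2, so no untreated mean is given. That value was 5.24, the 19th highest of 5697 there. In the deposited Cy3 over Cy5 form, the untreated value and that of -10.67 were both negative, so Cy3 was the lower channel on both arrays.

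The limma fit over all features set a threshold of 0.05 on the Benjamini-Hochberg adjusted p. Among the 6 genes it called 5 higher and 1 lower with 4NQO, where 9.07% of 2194 tested features were called higher and 10.4% lower. Because these values chose the genes, nothing is read from that count, and leaving out any 1 of 6 of the 8 arrays left 0 features called with 4NQO. In untreated cells 0 of the 5 tested genes were called, beside 0.0289% of 3457 features (1 called, 198 at an unadjusted p under 0.05). For the difference between 4NQO and untreated ratios 0 of 5 were called, as were 0% of the 1654 features with all arrays (226 at an unadjusted p under 0.05).

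Counts by sign read alike, and nothing is read from them either, because these ratios chose the genes. Above 0 on all 4 4NQO arrays were 5 of the 6 genes and 13.2% of 2194 features, and above 0 on all 4 untreated arrays 2 of 5 genes, ERG25 and ERG28, and 10.3% of 3457 features. For 3 of the 5 genes on all arrays (ERG2, ERG28 and CYB5) every 4NQO array exceeded every untreated array, as did 6.71% of the 1654 features. The difference between the condition means was 2.06 for ERG2, 1.91 for ERG3, 1.97 for ERG25, 2.23 for ERG28 and 2.96 for CYB5.

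Centring moved the 6 values without turning any. With each array's median set to 0 the 4NQO means were 2.46 for ERG2, 2.51 for ERG3, 3.33 for ERG25, 3.01 for ERG28, 3.81 for CYB5 and -2.82 for HES1. The split of all calls moved far more, from 199 higher and 229 lower as deposited to 195 and 17, and with arrays centred and scaled to 129 and 28. Spots were printed in blocks, and ERG3 and ERG25 share block 45. The block of CYB5 had medians of 0.91 and 1.58 on the Cy5-mutant arrays of 4NQO experiments 1 and 2, and that of ERG28 had 1.28 and 1.17 on both arrays of experiment 2. With each block centred, the 4NQO means of CYB5 and ERG28 were 2.80 and 1.84, ERG2 was at 1.68, ERG3 at 2.08 and ERG25 at 2.90, and the calls over all features were 284 higher and 124 lower.

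The dye orientation moved with the size of the ratio. In all 10 pairs of 4NQO arrays of the 5 genes, the array with the mutant in Cy3 read higher than its partner. The excess was 3.19 for ERG2, 2.75 for ERG3, 2.04 for ERG25, 1.12 for ERG28 and 0.63 for CYB5 in experiment 1. In experiment 2 it was 0.03, 1.99, 1.63, 0.91 and 2.43 for the same genes in the same order. Over all features with both arrays, the Cy3-mutant array was the higher one for 47.2% of 4503 features in experiment 1 and 54% of 2722 in experiment 2. In untreated cells it was higher in 6 of the 10 pairs. The genes were chosen on these ratios, so nothing is read from the counts of pairs. With 4NQO the Cy3-mutant arrays also had the wider spread (median absolute deviation 1.02 against 0.88 in experiment 1, 1.28 against 0.96 in experiment 2). The mean of a dye swap holds both orientations equally. With the mutant in Cy5 the ratios were positive in both experiments for each of the 5 genes, the lowest being 0.57 for ERG3 and 0.61 for ERG2. These ratios are among those that chose the genes, and the part of dye in them was not tested.

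**Figure D2:**
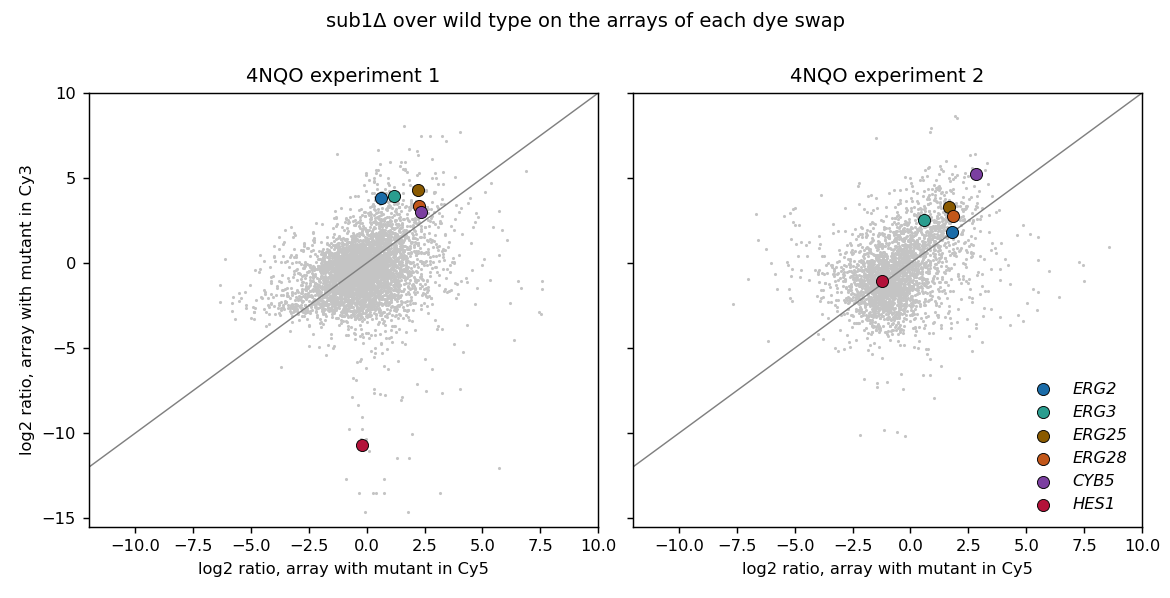
Each panel is 1 4NQO experiment; x is the log2 ratio of sub1Δ to wild type on the array with the mutant in Cy5, y the same on the array with the mutant in Cy3. Grey points are all features with both values, coloured points the 6 genes, and the line marks equal values. The 5 genes with positive ratios lie on or above the line in both panels, and HES1 lies at -10.67 on the y axis in experiment 1.

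Which strain is higher rests on the dye given for each strain. It also assumes that no dye-swapped array was turned before deposit, which the labels do not say. In the deposited Cy3 over Cy5 form, the 5 genes were negative on all 4NQO arrays with the mutant in Cy5 and positive on all those with the mutant in Cy3. If all swaps had been turned before deposit, the means would be -0.80 for ERG2, -1.18 for ERG3, -0.92 for ERG25, -0.51 for ERG28, -0.76 for CYB5 and 2.58 for HES1, and the test would call 0 features with 4NQO.

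The other genes of the pathway were sparsely measured. Of 83 genes in 8 sterol-related lists, 42 had a single-symbol spot, 27 could be tested in untreated cells and 14 with 4NQO. With 4NQO 2 of the 14 were called higher and 0 lower, where 9.07% and 10.4% of all 2194 features were, and the median ratio of the 14 was -0.68, beside -0.56 over all features. In untreated cells 0 of 27 were called, with a median of 0.36. Beyond the 6 genes described, the pathway thus gave few values on which a common direction could be read.

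Of 11 post-squalene ergosterol genes other than the 4 described, 6 were spotted, 2 were tested with 4NQO and neither passed. ERG24, ERG26 and ERG4 are named here after their values were seen. ERG26 and ERG27 encode the decarboxylating dehydrogenase and the ketoreductase that work beside the product of ERG25. ERG26 was at 1.77, 2.53 and 1.72 on 3 4NQO arrays and lacked the fourth, so it was not tested. Those 3 values lie within the range of ERG25, while its untreated mean was 0.37 ± 0.21 (SD, n = 2).

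ERG27 had 2 spots. With 4NQO the first was at 0.89, 2.31 and 0.81 on 3 arrays, and the second at 1.21, 2.58, -0.76 and 0.57. Averaged, the gene was at 1.02 ± 1.03 (SD, n = 2; limma adjusted p = 0.20), and it passed with spot blocks centred (1.76, limma adjusted p = 0.026). In both ERG26 and ERG27 the Cy3-mutant array of experiment 1 was the highest, as in ERG2, ERG3, ERG25 and ERG28.

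ERG1, which encodes squalene epoxidase, did not pass with 4NQO at -0.66 ± 1.67 (SD, n = 2; limma adjusted p = 0.44), with 3 arrays below 0 and 1 above. ERG24, the gene of a sterol reductase, ranged from -0.89 to 4.32 on 3 4NQO arrays. ERG4, the gene of the last reductase of the chain, was at 1.12 and 0.30 on 2 arrays. NCP1, which encodes cytochrome P450 reductase, the other electron donor of the chain, was at -0.81, 0.28 and -1.15 on 3 arrays. Its untreated mean was 1.14 ± 0.29 (SD, n = 2; limma adjusted p = 0.87). On each of the 3 4NQO arrays that measured both, NCP1 lay below CYB5, a difference that was not tested. CYB5 was chosen on these ratios and was the 11th highest of 2194 features, so nothing is read from that order.

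Of 7 genes of cytochrome b5 and electron transfer partners other than CYB5, 2 were tested with 4NQO and neither passed. SCS7, a sphingolipid hydroxylase gene whose protein carries its own cytochrome b5 domain, was at 0.95 ± 0.85 (SD, n = 2; limma adjusted p = 0.23), and with spot blocks centred at 1.57 (limma adjusted p = 0.048). DAP1, a haem-binding partner of sterol P450 enzymes, was at 0.35 ± 2.08 with 4NQO and at 1.08 ± 0.004 untreated (SD, n = 2; limma adjusted p = 0.70 and 0.93). The small untreated SD hides wide gaps within each dye swap, with DAP1 arrays at 1.66 and 0.50, then 1.76 and 0.39. OLE1, the fatty acid desaturase gene, was at 1.41 ± 1.55 untreated (SD, n = 2; limma adjusted p = 0.80) and at 1.95, 1.38 and 2.10 on the 3 4NQO arrays that measured it, too few for the fit described, which needed both arrays of both experiments.

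The early part of the pathway and the relatives of HES1 had no gene with both arrays of both 4NQO experiments. Where 1 array was allowed to stand for a dye swap, 2 genes of each list were tested and 0 called, as were 0 of all features. Of 9 mevalonate and farnesyl diphosphate genes 2 were spotted. MVD1 and ERG20, of the mevalonate and farnesyl diphosphate steps, were at 0.89 ± 0.10 and 0.50 ± 0.69 untreated (SD, n = 2; limma adjusted p = 0.94 and 0.97). With 4NQO MVD1 was at 0.47, 1.07 and 0.24 on 3 arrays and ERG20 at 0.62 and 0.74 on 2, all above 0. Among 6 oxysterol-binding homologues 3 were spotted. OSH6 and OSH7 were at 0.42 ± 1.20 and 0.24 ± 0.55 untreated (SD, n = 2; limma adjusted p = 0.97 and 0.98). With 4NQO OSH6 was at -0.30 and 2.13 on 2 arrays, and OSH7 at -0.56, -0.19 and -0.49 on 3. KES1, the closest relative of HES1, had a value on 1 array, 0.28 on the same untreated array where HES1 read 5.24, and is named here after its values were seen. Whether the HES1 and KES1 spots bind each other's transcripts was not tested.

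Of 19 genes of sterol esterification, hydrolysis and transport, 5 were tested with 4NQO. PRY2, which encodes a secreted sterol-binding protein, was called higher at 1.81 ± 0.90 (SD, n = 2; limma adjusted p = 0.038), or 3.51-fold. Its 2 spots disagreed: the complete one was at 0.70, 4.20, 2.03 and 2.40 and the other at 0.67 and -2.12 on 2 arrays. Taken alone, the complete spot had a mean of 2.33 (limma adjusted p = 0.0056). PRY2 did not pass with arrays scaled (adjusted p = 0.076) or with 4NQO fitted alone (0.10), and was at 0.93 without the Cy3-mutant array of 4NQO experiment 1 (adjusted p = 0.33). It passed in 2 of the 12 settings that left out an array or an experiment. It was at 1.18 without that whole experiment (0.27) and at 1.20 without the Cy3-mutant array of experiment 2 (0.30).

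The other 4 tested genes of that list did not pass, with means from -1.70 to -0.49. ARV1, whose protein affects sterol distribution, was at 2.57 and -7.51 in 4NQO experiment 1 and at -1.64 and -0.20 in experiment 2, with a mean of -1.70 ± 1.10 (SD, n = 2; limma adjusted p = 0.054). Like HES1, ARV1 had an extreme value on the Cy3-mutant array of experiment 1, and its single untreated value, 7.32, was on the array that gave HES1 its only one. In the deposited Cy3 over Cy5 form these extreme values of both genes were all negative. Cy3 was thus the lower channel whichever strain it carried, and the cause was not tested. YEH1, a steryl ester hydrolase gene, was at -0.98 ± 0.11 (SD, n = 2; limma adjusted p = 0.21).

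Of 11 hypoxic and anaerobic genes 2 were tested with 4NQO. ANB1, a translation factor gene induced in low oxygen, was called higher at 2.02 ± 0.15 (SD, n = 2; limma adjusted p = 0.031). Unlike the 5 genes described first, ANB1 stood as high before treatment, at 2.03 ± 1.59 (SD, n = 2; limma adjusted p = 0.33, and 0.049 with untreated cells fitted alone), and its difference between conditions was -0.02. ANB1 has a near-identical copy, HYP2, that its spot may also bind. It did not pass with arrays scaled (adjusted p = 0.052) or with 4NQO cells fitted alone (0.075), and of the 12 settings that left out an array or an experiment it passed in 1, without the Cy5-mutant array of 4NQO experiment 1. TIR2, a cell wall gene of anaerobic growth, was at -0.75 ± 1.05 (SD, n = 2; limma adjusted p = 0.34).

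Of 13 sterol and hypoxia regulators, HRD1, which encodes a ubiquitin ligase that controls sterol enzyme turnover, was the 1 gene tested with 4NQO, at -1.39 ± 1.77 (SD, n = 2; limma adjusted p = 0.12). SUT1 and MOT3, 2 transcription factor genes of sterol uptake and hypoxia, were at -0.92 ± 1.97 and -0.66 ± 0.84 untreated (SD, n = 2; limma adjusted p = 0.94 for both). Haem is the cofactor of cytochrome b5, and neither of the 2 tested genes of 8 in its synthesis passed with 4NQO. HEM15 and HEM4 were at -0.98 ± 0.57 and -0.69 ± 0.68 with 4NQO (SD, n = 2; limma adjusted p = 0.20 and 0.41). HEM3 and HEM13 were at -0.86 ± 0.23 and 0.89 ± 0.87 untreated (SD, n = 2; limma adjusted p = 0.94 for both).

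**Figure D3:**
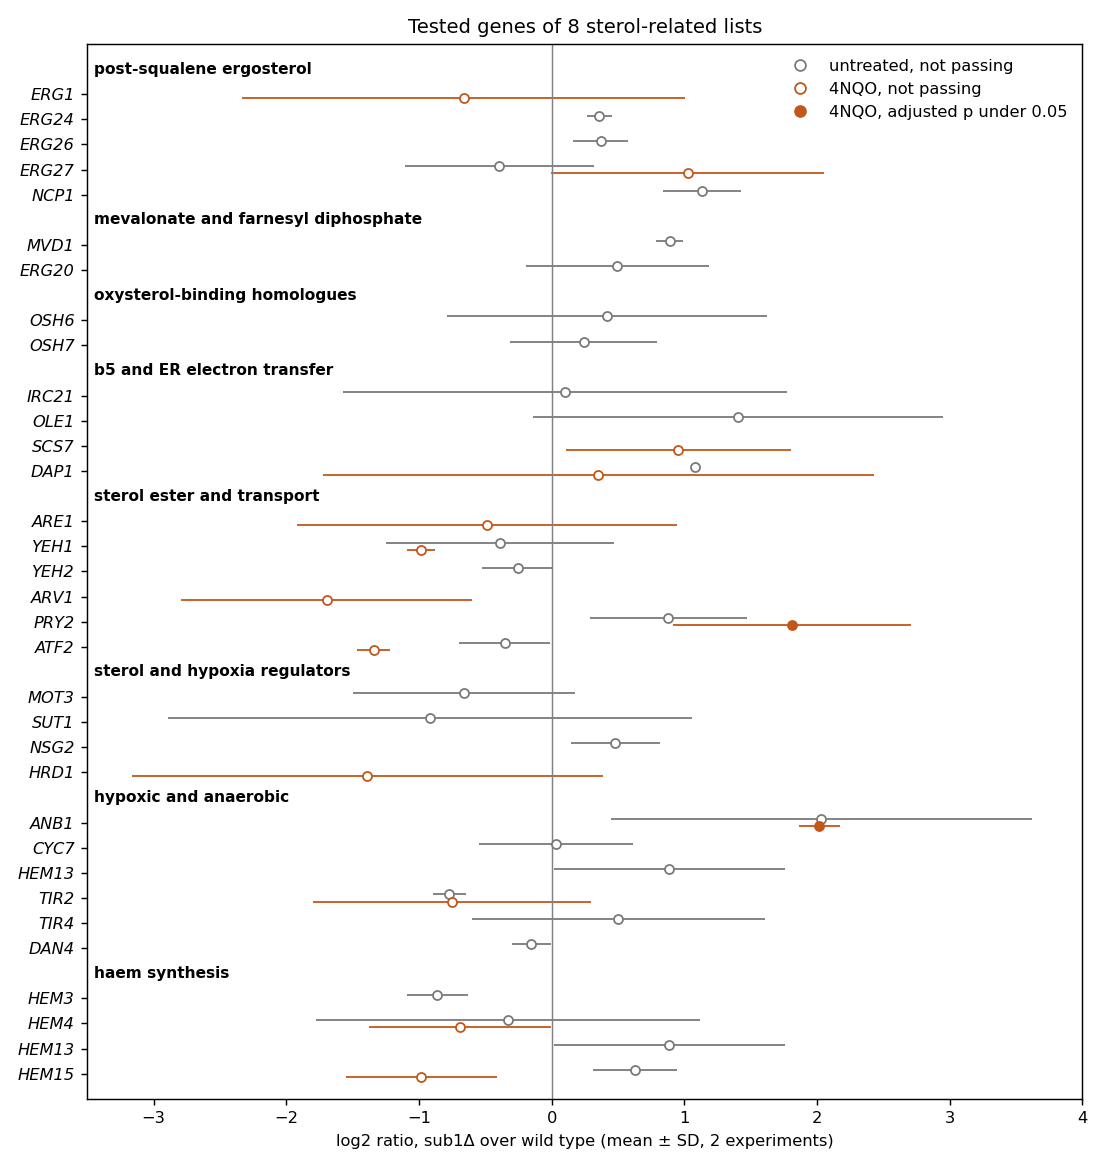
Tested genes of the 8 lists (y axis), with the log2 ratio of sub1Δ to wild type on the x axis as mean ± SD of 2 experiments. Grey is untreated and orange 4NQO, and filled points passed limma's test at an adjusted p of 0.05. PRY2 and ANB1 are the filled points, at 1.81 and 2.02, and no untreated point is filled.

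Likeness between the 5 complete genes was taken across the 8 arrays, with array medians centred. The genes were chosen on these ratios, so a high r between them follows in part from the choice. These r values describe 8 arrays that come from 4 RNA pairs in 2 conditions, and pairs of genes share the arrays' depth and dye effects. Between members r ran from 0.74 (ERG2 with CYB5) to 0.93 (ERG25 with ERG28). Out of 946 other genes, however, those most like a member were never another member. Other members ranked from 7th (ERG3 for ERG2) to 131st (ERG2 for CYB5).

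ERG2 was most like MET17 (r = 0.97), a sulfur amino acid synthesis gene, then NCE103 (0.96), a carbonic anhydrase gene, and VOA1 (0.94), of vacuolar ATPase assembly. ERG3 was most like VOA1 (0.98), YJU3 (0.96), a monoglyceride lipase gene, and CPR1 (0.96), a cyclophilin gene. ERG25 was most like RIP1 (0.98), a respiratory chain subunit gene, ARC1 (0.98), a tRNA synthetase cofactor gene, and EGD2 (0.95), a nascent chain-binding protein gene. ERG28 was most like CPR1 (0.98) and the ribosomal protein genes RPS19A and RPS26A (both 0.98). CYB5 was most like EMP24 (0.98), of vesicle transport, the ribosomal protein gene RPS7A (0.97) and URA5 (0.97), of pyrimidine synthesis. As an example of the likeness, RIP1 was at 1.92, 3.67, 1.11 and 2.45 on the 4NQO arrays, with the same rise from the Cy5-mutant to the Cy3-mutant array as ERG25.

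The chromosomal neighbours, by the order of protein-coding genes in the RefSeq assembly R64, were added after the data were seen. Because the spots were amplified from double-stranded DNA, they can bind labelled cDNA of either strand, and neighbours that overlap cannot be told apart. SAH1, the neighbour of ERG28 that hydrolyses S-adenosylhomocysteine, had a 4NQO mean of 2.19, with arrays at 0.57, 1.91, 3.07 and 3.22. The untreated mean of SAH1 was 0.57, with the highest array at 2.40, so its conditions overlap. ADE6 beside ERG25 was at 0.41 and SPR3 on its other side at -1.86. DBP2 and NOP15 on either side of CYB5 were at 0.95 and 0.52 with 4NQO and at -0.26 and -0.50 untreated, higher with 4NQO as CYB5 was, but by less. DFR1 beside HES1 had a mean of -1.14 and was below 0 on all 4 4NQO arrays, as HES1 and the medians of those arrays were. SPT8 beside ERG3 was at -0.73, 0.33 and -1.62 on 3 arrays.

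**Figure D4:**
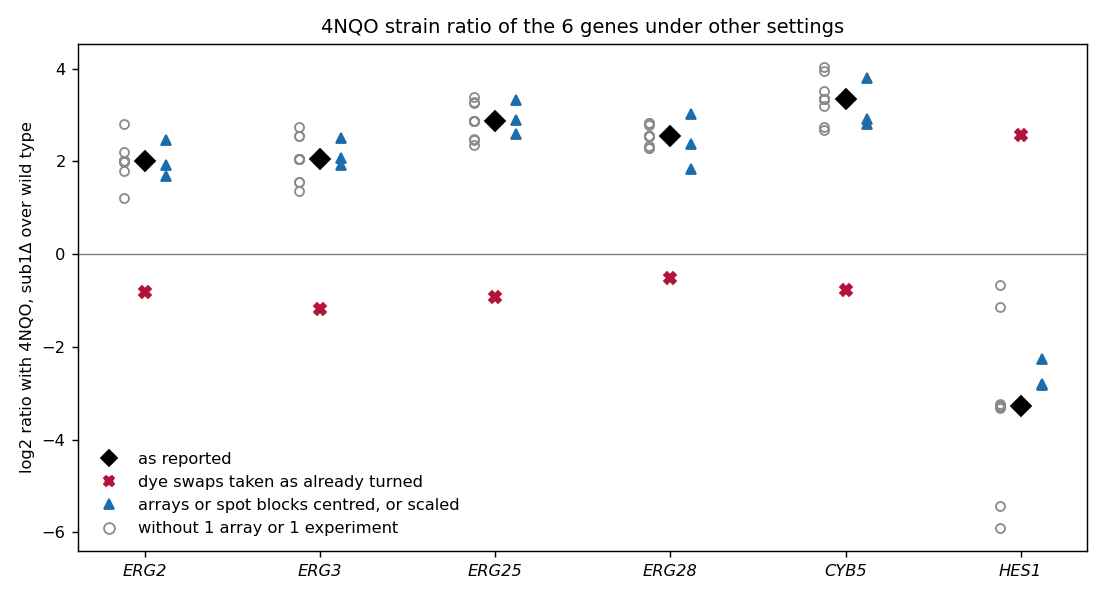
The mean log2 ratio with 4NQO (y axis) of each of the 6 genes under other settings: diamonds as reported, triangles with arrays or spot blocks centred or arrays scaled, open circles without 1 array or 1 experiment, crosses with dye swaps taken as already turned. Circles and triangles keep the sign of the diamond for every gene, from 1.20 to 4.04 for the first 5, and crosses do not.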

How the data were processed

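Labelled cDNA of both strains was hybridised to spotted open reading frame arrays. Per the series' design text, the authors scanned with GenePix, subtracted background, normalised by LOWESS (smooth parameter 0.33) and deposited a log2-ratio of the Cy3 to the Cy5 channel for each spot. Their limma was version 2.12.0, per the submitters' processing notes. The sources used here do not say why spots lack values, and intensities were not used.

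The sign was reversed where the mutant was in Cy5. Symbols came from GEO's platform annotation, updated through RefSeq R64 (3343 of 3344 matched). Spots of a gene were averaged, giving 5999 features. Both arrays of a dye swap were averaged, and limma 3.58.1 (R 4.3.3) was fitted to the 4 means with a shared spread (16.8 prior degrees of freedom). Testing required both arrays of both experiments of a condition. Tests were 2-sided, with Benjamini-Hochberg adjustment over all tested features. The fit was tested on simulated data. No promoter or protein sequences were used here, so the planned motif and identity comparisons were not run.

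The genes and the 8 lists were chosen with earlier results of these data known. Of each list every called gene and the 2 of smallest p per condition are named. Likeness is Pearson's r on centred arrays. Alternatives covered centring, scaling, dye turning, missing values, duplicate spots, the samples fitted and each array or experiment left out.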

Additional observations from a re-analysis of the deposited data

Results flagged for a closer look

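Among 41 groups of 4 arrays (the named genes in each condition), 3 held an array far from the other 3 by Dixon's test, and chance flags about 1 in 20 groups. The arrays of a group come in dye-swap pairs and are not independent, so that rate is a rough guide only. HES1 with 4NQO read -10.67 on the Cy3-mutant array of experiment 1, against -1.22 to -0.18 on the other 3. HES1 was chosen on these ratios, so its flag is a description and carries no test. OSH7 read 1.42 on the Cy3-mutant array of untreated experiment 2, against -0.24 to -0.06. HEM13 read 3.07 on that same array, against -0.06 to 0.33. That array correlated at r = -0.20 with its dye-swap partner across features.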

How the results depend on the processing

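ERG2, ERG3, ERG25, ERG28, CYB5 and HES1 kept the sign of their 4NQO means under every setting run except the turning of dye swaps. Leaving out an array or experiment could not change a sign, since each gene's 4NQO values all lay on 1 side of 0. Without the turning the ranges of the 6 genes were 1.20 to 2.80, 1.37 to 2.74, 2.36 to 3.38, 1.84 to 3.01, 2.67 to 4.04 and -5.90 to -0.66. With swaps taken as already turned their means were -0.80, -1.18, -0.92, -0.51, -0.76 and 2.58, 0 features and 0 pathway genes were called with 4NQO, and 0 of the 6 genes with 4NQO and 1 untreated stood above 0 in every experiment (5 and 3 as reported, and 2 to 5 untreated with an array or experiment left out). Under that turning the untreated values were 0.028 for ERG27, -0.82 for NCP1, -0.37 for MVD1, -0.48 for ERG20, -0.55 for OSH6, -0.34 for OSH7, -0.27 for PRY2, 0.16 for YEH1, 0.044 for SUT1, 0.92 for MOT3, -0.48 for ANB1, 0.64 for TIR2, -0.81 for HEM13 and -0.79 for HEM15. The 4NQO values were -0.48 for ERG27, -0.53 for SCS7, -1.49 for PRY2, 2.16 for ARV1, 0.36 for YEH1, -0.071 for ANB1 and 0.24 for HEM15. Turning the swap of untreated experiment 2 alone, chosen after seeing the data, gave 9 untreated calls, 13 calls for the difference, 1 pathway call with 4NQO, and untreated values of -0.47 for OSH7, 0.57 for MOT3 and -0.65 for HEM13. HES1 had no value among features on all 8 arrays. The 428 calls with 4NQO became 212 with arrays centred, 157 with arrays scaled, 94 with 4NQO fitted alone, and 0 with features on all 8 arrays or with 1 array allowed to stand for a dye swap. They ran from 0 to 432 with an array or experiment left out, and were 0 without any of the untreated arrays other than the Cy3-mutant one of experiment 1, or any of the 4NQO arrays other than the Cy5-mutant one of experiment 1. The 1 untreated call became 0 with arrays centred, with complete features or with 1 array allowed, 3 with blocks centred, 25 with arrays scaled, 8 with spots apart, 42 with untreated cells fitted alone, and 0 to 42 with an array or experiment left out. Calls for the difference were 0, 2 with blocks centred, and 0 to 53 with an array or experiment left out. The 2 pathway calls with 4NQO became 4 with blocks centred (ERG27 and SCS7 added), 0 with arrays scaled, complete features, 1 array allowed or 4NQO fitted alone, and 0 to 3 with an array or experiment left out; untreated pathway calls were 0, and 1 (ANB1) fitted alone, as in the range of 0 to 1 with an array or experiment left out. With blocks centred YEH1 and MOT3 were at 0.041 and 0.027 untreated and ERG1 at 0.34 with 4NQO. With an array or experiment left out, untreated values ran from -0.90 to 0.11 for ERG27, -0.999 to 0.22 for YEH1, -0.12 to 1.38 for HEM15, -1.35 to 0.70 for HEM4, -0.10 to 0.94 for OSH6 and -0.15 to 0.63 for OSH7, and 4NQO values from -1.12 to 1.82 for DAP1 and -4.22 to 0.82 for ARV1. Taking experiments as pairs across conditions (a replicate block) left 0 calls for the difference; with 2 pairs the labels do not say that they share cultures. The cause of these changes was not tested.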

Other observations

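Features with the missing-value pattern of HES1, a value on the Cy5-mutant array of untreated experiment 2 on no other untreated array and on all 4 4NQO arrays, numbered 17 with HES1 and ARV1 among them. On the Cy3-mutant array of 4NQO experiment 1 these features had a median of -1.99, beside -0.49 over all spots of that array. Of the 17, 3 lay below -6, HES1 (whose pattern defined them) and ARV1 included, beside 48 of 4586 features.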
